A study of Homo sapiens with 4 samples.

Results

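Receptor-type protein tyrosine phosphatases were examined in SAS cells in which the protease inhibitor HAI-1 had been silenced. The set holds 10 genes, PTPRA, PTPRE, PTPRF, PTPRG, PTPRJ, PTPRK, PTPRM, PTPRS, PTPRU and PTPRZ1, out of 19891 genes named on the array, and it is measured by the 29 probe sets whose deposited gene symbol equals one of these names. The genes were chosen with the signals of these same 4 arrays in view, so their differences between the groups are given as a description, without p-values, and support nothing by themselves. A further 9 receptor-type genes on the array are described after them. These 9 and the lists of related genes below were also chosen with earlier results of these data known. Their adjusted p-values are given as a description and are not independent of that choice. SAS is an established line from a human oral squamous cell carcinoma. All cells had been infected with the retroviral vector pSINsi-hU6, which expresses a short hairpin RNA. The hairpin of the knockdown cells targeted SPINT1, the gene of HAI-1, and that of the control cells was a scrambled version. All cells were grown in the same medium, RPMI1640 with serum. Each group holds 2 Affymetrix arrays of total RNA. Whether each array stands for a separate infection or culture, and whether the infected cells are a clone, is not stated in the labels, so the p-values below measure only the spread between these arrays, which may be technical. In such bulk samples a lower signal from fewer expressing cells cannot be told apart from less RNA per cell.

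A receptor-type protein tyrosine phosphatase spans the plasma membrane, with an extracellular part built like an adhesion molecule and an intracellular part that removes phosphate from tyrosine residues. Most members carry a catalytic domain next to the membrane and a further, mostly inactive one behind it. In epithelia these enzymes are known from cell contacts, where they act on catenins, Src-family kinases and growth factor receptors. Many are cut by furin-like proteases on the way to the surface and shed by ADAM proteases once there.

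SPINT1 checked the labels. Its main probe set (202826_at) read 135 on knockdown array 1, 282 on knockdown array 2, and 1451 and 1445 on the 2 control arrays, a log2 change of -2.79 (SE 0.25, limma adjusted p = 5.7e-05). Both knockdown readings were far below the control readings. A further SPINT1 probe set (235546_at) was called present on no array and read 203 and 263 against 222 and 282 (log2 change -0.11, limma adjusted p = 0.78), so the check rests on the first. Between 45.6% and 48.1% of all probe sets were called present on an array, and the ratio of 3′ to 5′ signal lay between 0.985 and 1.04 for GAPDH and between 1.47 and 1.86 for ACTB, the highest on knockdown array 2. Of 10 squamous epithelial markers, 9 were called present on at least 1 array and KRT16 on none. The summed signal of those markers was 73444 and 82052 in knockdown cells and 73366 and 76606 in control cells. Of the markers of other cell types, 3 of 7 endothelial, 3 of 8 fibroblast, 3 of 8 leukocyte and 3 of 8 neural and glial genes were called present on at least 1 array. PTPRC, the leukocyte phosphatase CD45, was called present on none by its brightest probe set, and so were VWF, COL1A2, COL3A1 and SOX10. Of those other cell type markers, CDH5 and TEK (endothelial), FBLN1 (fibroblast), and ITGB2 and LAPTM5 (leukocyte) rose, with log2 changes of 0.94, 0.99, 0.80, 0.62 and 1.34, and MAP2 (neural) fell, with -0.71 (limma adjusted p between 0.0049 and 0.047). LAPTM5 was bright enough to be tested only through the knockdown arrays. Of the squamous markers KRT14 and KRT5 were higher and DSG3 and SFN lower. The endothelial markers summed to between 1013 and 1389 in knockdown and between 653 and 676 in control cells, the fibroblast markers to between 1112 and 1193 and between 784 and 880, the leukocyte markers to between 1225 and 1273 and between 952 and 1243, and the neural and glial markers to between 1387 and 1548 and between 1785 and 1973. The part of these differences in the results below was not tested.

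The promoters of PTPRG, PTPRM and PTPRR are shown because the signal of each gene was higher on both knockdown arrays, and because they differ in base composition. PTPRR is a further receptor-type gene outside the set of 10. Each sequence runs 5′ to 3′ on the strand of the gene, from 250 bases before to 50 bases after the RefSeq start (GRCh38.p14), and capitals mark CpG dinucleotides. The PTPRG window lies at chr3:61561321-61561620 on the plus strand, that of PTPRM at chr18:7567066-7567365 on the plus strand and that of PTPRR at chr12:70754559-70754858 on the minus strand.
PTPRG: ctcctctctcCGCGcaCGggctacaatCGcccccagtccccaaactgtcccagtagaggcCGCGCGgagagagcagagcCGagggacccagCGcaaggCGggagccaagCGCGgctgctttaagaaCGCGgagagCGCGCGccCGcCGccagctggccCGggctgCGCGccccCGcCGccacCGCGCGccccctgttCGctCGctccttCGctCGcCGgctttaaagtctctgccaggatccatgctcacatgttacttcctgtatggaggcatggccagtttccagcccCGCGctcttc
PTPRM: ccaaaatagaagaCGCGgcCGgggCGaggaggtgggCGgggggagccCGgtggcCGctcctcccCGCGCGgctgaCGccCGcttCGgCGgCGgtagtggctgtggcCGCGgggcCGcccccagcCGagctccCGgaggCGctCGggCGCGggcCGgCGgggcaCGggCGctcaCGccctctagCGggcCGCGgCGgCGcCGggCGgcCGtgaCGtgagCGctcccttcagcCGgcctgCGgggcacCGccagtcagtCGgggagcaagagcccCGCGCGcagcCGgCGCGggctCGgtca
PTPRR: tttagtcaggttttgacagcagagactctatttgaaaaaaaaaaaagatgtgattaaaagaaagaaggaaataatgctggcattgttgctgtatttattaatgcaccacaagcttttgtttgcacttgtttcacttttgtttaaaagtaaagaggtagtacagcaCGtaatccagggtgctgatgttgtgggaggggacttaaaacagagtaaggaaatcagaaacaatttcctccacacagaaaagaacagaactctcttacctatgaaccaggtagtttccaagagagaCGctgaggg
The PTPRG window held 34 CpG dinucleotides and the PTPRM window 50, while the PTPRR window held 2. A single window per gene was used, the first listed. In the deposited alignments the PTPRR probe sets 210675_s_at and 206084_at, on the minus strand, reach up to 69434632 and 69600853. Their 5′ ends thus differ, and other starts of PTPRR were not examined. RefSeq windows were matched for 9 of the 10 members, all but PTPRJ. These held between 34 and 55 CpG dinucleotides and between 68.7% and 81.3% G and C, against a median of 14 CpG and 58.7% over 35116 windows of the same length, of which 15.6% had at least 34 CpG. The GC box GGGCGG, searched on both strands, was found in 7 of the 9 windows, with 3 copies in PTPRM and none in PTPRG, and it occurs in 45.0% of all windows. The motif TATAAA was found in none of the 9 (11.5% of all windows, both strands), and neither was the AP-1 motif TGANTCA (7.71%). The E-box CACGTG, found in 7.26% of all windows, occurred in PTPRS only. These letters describe the windows and say nothing about which factors bind there.

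PTPRG and PTPRZ1 form a subfamily with a carbonic anhydrase-like domain at the outer end. PTPRG binds contactins, and PTPRZ1, known from glia, binds the growth factors pleiotrophin and midkine. PTPRG had the largest difference of the 10 genes. Positions of probe sets are those of the deposited alignments, whose build is not given in the sources used here. Its brightest probe set (204944_at, chromosome 3, 61521808 to 62254997, plus strand) read 344 and 311 on the knockdown arrays and 1.42 and 2.44 on the control arrays. Both knockdown arrays had a present call and both control arrays an absent call. The groups were far apart, and the signal was 12.7-fold higher in knockdown cells on the log2(signal + 16) scale. For this fold, a control array reading below the lowest signal called present anywhere on it was taken at that lowest signal. The fold is not a strict lower limit, since other probe sets were called absent at higher signals (SPINT1 235546_at at 203 to 282). The exact difference is not fixed by these values, since neither control signal was called present. It was 4.26 on the log2(signal + 16) scale, 6.83 with a pseudocount of 1 and 2.57 with a pseudocount of 64. This probe set passed the filter on dim signals only through the knockdown arrays. The other PTPRG probe sets did not show the difference. Probe set 244574_at, aligned just beyond the 3′ end of the first (chromosome 3, 62255956 to 62256675), read 84.1 and 26.4 on the knockdown arrays and 35.7 and 25.6 on the control arrays. Probe set 1569323_at, aligned within the 5′ part (chromosome 3, 61522282 to 61732393), read 20.7 and 1.41 against 4.37 and 16.9. Neither had a present call, the groups overlapped for both, and both lay below the filter. PTPRZ1 was dim throughout. Its single probe set (204469_at) read 17.5 and 27.5 on the knockdown arrays and 18.9 and 16.6 on the control arrays, was called present on control array 1 alone and was not tested.

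**Figure D1:**
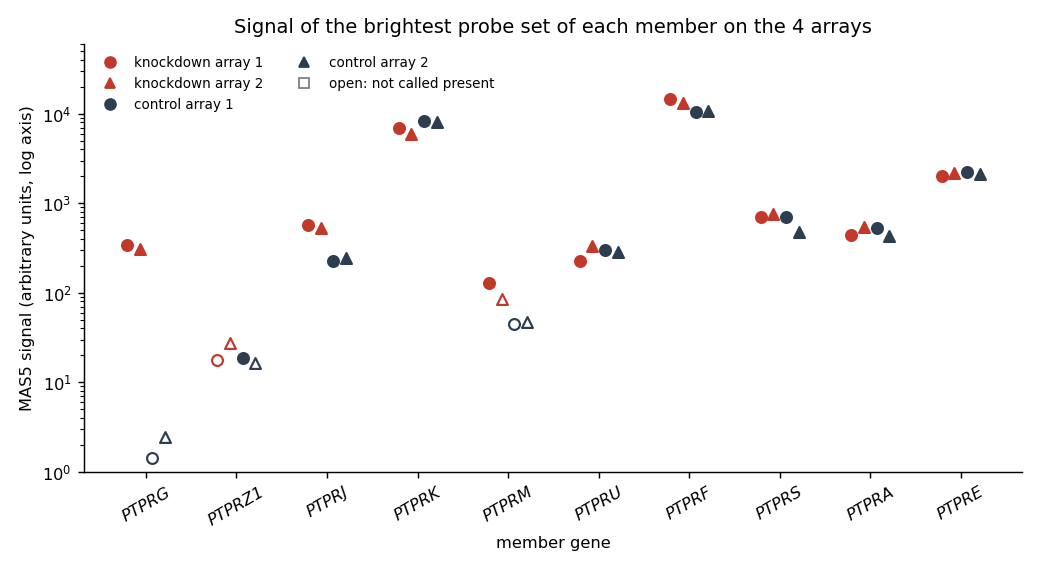
MAS5 signal, on a log axis, of the brightest probe set of each of the 10 genes on the 2 knockdown arrays (red) and the 2 control arrays (dark), with open symbols where the probe set was not called present. PTPRG reads 344 and 311 against 1.42 and 2.44, PTPRJ and PTPRF are higher and PTPRK lower on both knockdown arrays, and levels of different genes come from different probes and are not comparable.

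PTPRJ, also called DEP-1 or CD148, has fibronectin type III repeats outside and a single catalytic domain inside, and it is known to act on growth factor receptors such as MET. Its brightest probe set (227396_at, chromosome 11, 48147562 to 48148970, plus strand) read 574 and 527 on the knockdown arrays and 229 and 246 on the control arrays. Both knockdown arrays lay above both control arrays, and the probe set was called present on all 4. The log2 change was 1.16 (SE 0.17), or 2.24-fold, and lay between 1.03 and 1.22 over the alternative settings of this single probe set. The mean over probe sets is not part of this range, and the log2 changes of the other PTPRJ probe sets were 0.27 and 0.10. The other PTPRJ probe sets were not called present on any array and were not tested. They read 60.3, 56.9, 29.3 and 67.8 (214137_at) and 33.4, 7.84, 36.2 and 3.65 (210173_at) on the knockdown arrays and then the control arrays, so the groups overlapped. Probe set 214137_at is aligned to the minus strand, opposite to the other PTPRJ probe sets.

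PTPRK, PTPRM and PTPRU carry a MAM domain that binds the same protein on a neighbouring cell. All are known from adhesion sites of epithelial or endothelial cells. They did not share a direction. PTPRK (203038_at) was lower on both knockdown arrays, with 6848 and 5972 against 8288 and 8001 on the control arrays. Its log2 change was -0.35 (SE 0.11), and it lay between -0.45 and -0.25 over the alternative settings of this single probe set. The second PTPRK probe set (233609_at), which reads a stretch within the same gene, gave 153 and 136 against 200 and 182, a log2 change of -0.37 (SE 0.23). Here too the groups did not overlap. PTPRM (203329_at) read 128 and 85.4 on the knockdown arrays and 44.8 and 46.9 on the control arrays, and was called present on knockdown array 1 alone. The knockdown arrays were the higher ones, at a log2 change of 0.97 (SE 0.35). Like that of PTPRG, this probe set passed the filter on dim signals only through the knockdown arrays. A further PTPRM probe set (1555579_s_at) read 53.0 and 56.0 against 15.3 and 10.9 and had present calls in the knockdown group alone. It was 2.38-fold higher on the log2(signal + 16) scale by the rule given for PTPRG. It lay below the filter, and its listed alignment covers 46.4% of its sequence on chromosome 18 with another place on chromosome 7. The third PTPRM probe set (1555578_at) read under 4 on every array. PTPRU (211320_s_at) read 229 and 330 on the knockdown arrays and 301 and 285 on the control arrays, so the knockdown arrays lay on either side of the controls.

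PTPRF, the founding LAR phosphatase, and PTPRS have immunoglobulin and fibronectin repeats outside. PTPRS binds heparan and chondroitin sulphate, and both bind liprins inside the cell. PTPRF was called present on all 4 arrays by 3 of its 4 probe sets. The brightest (200636_s_at, chromosome 1, 43769133 to 43861918, plus strand) read 14492 and 12999 on the knockdown arrays and 10380 and 10684 on the control arrays. The groups did not overlap, and the log2 change was 0.38 (SE 0.11), or 1.30-fold. It lay between 0.30 and 0.46 over the alternative settings of this single probe set, which leave out the mean over probe sets. Probe set 200635_s_at, aligned to the same span, read 5900 and 4214 against 4178 and 4551. Only knockdown array 1 was above the controls there, the log2 change was 0.19 (SE 0.15), and leaving out knockdown array 2 gave 0.43 where leaving out knockdown array 1 gave -0.05. Probe set 200637_s_at had the same pattern, with 1961 and 1567 against 1524 and 1598. The fourth (215066_at) read 204 and 184 against 196 and 143. All 4 PTPRS probe sets had log2 changes above 0, between 0.28 and 0.67. The brightest PTPRS probe set (226571_s_at) read 705 and 758 on the knockdown arrays and 706 and 478 on the control arrays. Control array 2 alone was low there, and the log2 change of 0.32 (SE 0.18) was 0.05 without it. Probe set 229465_s_at, which read 381 and 240 against 237 and 255, is aligned to the plus strand, opposite to PTPRS, and covers nearly the same bases as the brightest one. The remaining probe sets (210823_s_at and 1555666_at) were higher on both knockdown arrays, the first at 101 and 86.8 against 64.6 and 76.8, but neither had a present call.

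PTPRA and PTPRE have short extracellular parts, and PTPRA is known to activate Src by removing its inhibitory phosphate. The groups overlapped for both genes on the brightest probe set. PTPRA (213795_s_at) read 442 and 550 on the knockdown arrays and 535 and 433 on the control arrays, so each group held a high and a low array. PTPRE (221840_at) read 2001 and 2181 against 2229 and 2096, a log2 change of -0.05 (SE 0.11). Of the other 4 PTPRA probe sets, 213799_s_at (132 and 148 against 128 and 74.7) and 239419_at (60.5 and 71.0 against 24.7 and 33.3) were higher on both knockdown arrays. The second of these was not called present on any array. The remaining PTPRA probe sets overlapped between the groups. The other PTPRE probe sets read at most 51.5 on any array. One of them (1559018_at) was lower on both knockdown arrays, at 43.5 and 19.1 against 51.5 and 48.6.

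**Figure D2:**
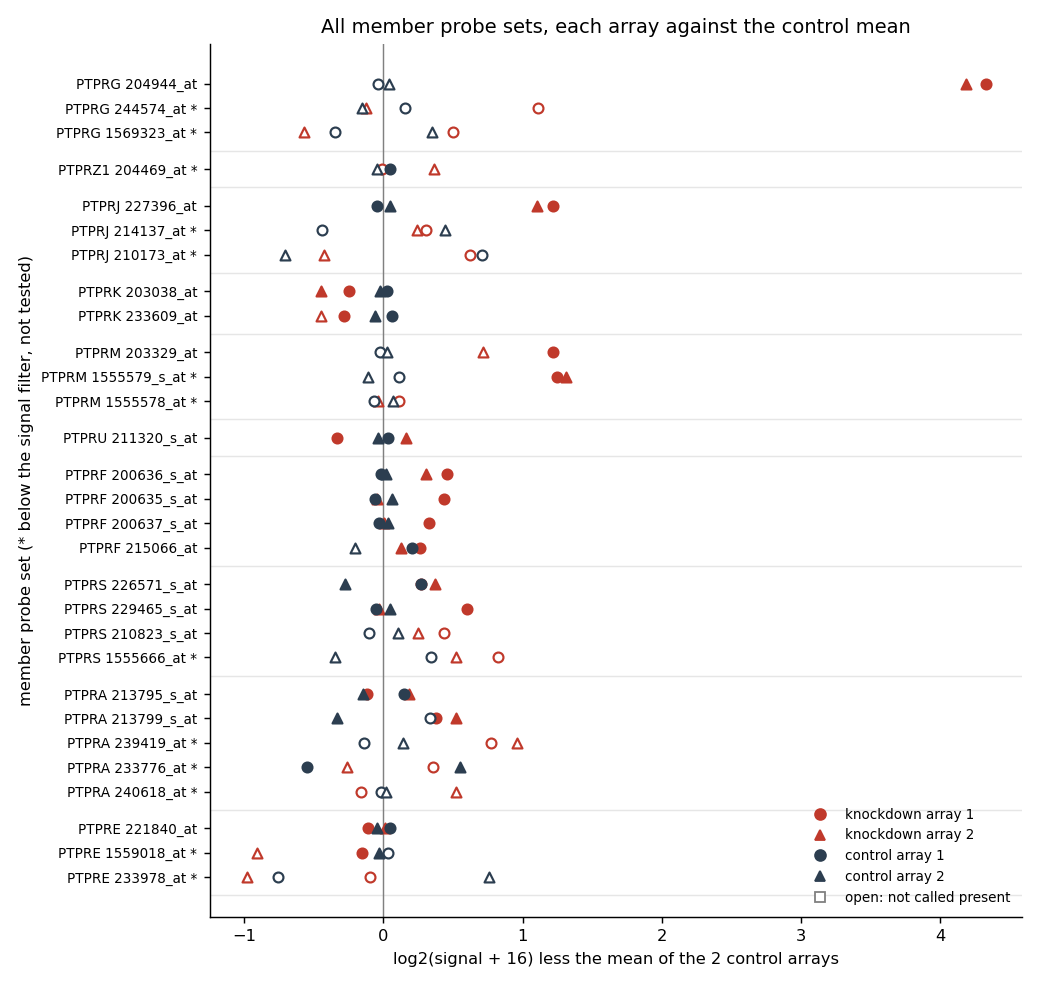
Each array's log2(signal + 16) less the mean of the 2 control arrays, for all 29 probe sets of the 10 genes, with open symbols where the probe set was not called present and a star for the 13 below the filter. A single PTPRG probe set lies near 4 on both knockdown arrays, while most probe sets lie within 1 of the control mean.

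Over the set as a whole, 16 of the 29 probe sets had a mean signal above the filter of 58.95 (the median of all probe sets) and were tested. The closest above it were PTPRM 203329_at at 76.3 and PTPRS 210823_s_at at 82.3, and the closest below were PTPRJ 214137_at at 53.6 and PTPRA 239419_at at 47.4. Of the 16, 3 passed the limma threshold of 0.05 on the adjusted p, namely those of PTPRG, PTPRJ and PTPRF, all higher in knockdown cells. Among all probe sets tested 15.6% passed, 7.33% higher and 8.32% lower. Since the genes were chosen from this contrast and some pass the filter only through their high group, nothing is read from this count. The call of PTPRF was lost in 4 of the alternative settings. Among these were testing all probe sets, dim ones included, and dropping the variance trend. The brightest probe sets of PTPRG and PTPRJ kept their calls in every setting in which these probe sets were tested. For PTPRF, PTPRG and PTPRJ alike, only settings of single probe sets are meant. Whether their calls hold with the mean over probe sets is not given here. Of all 29 probe sets, 9 were higher and 3 lower on both knockdown arrays than on both control arrays, where 25.7% and 20.8% of all probe sets were. The median log2 change was 0.19 over the 29 probe sets, beside 0.04 over all 54613, and 0.25 over the 10 brightest probe sets, beside 0.03 over the brightest probe sets of all genes. The median of the 10 was 0.09 without control array 2. Within genes with over 1 probe set, the log2 changes of PTPRA, PTPRF, PTPRJ, PTPRM and PTPRS were all above 0, those of PTPRE and PTPRK all below 0, and those of PTPRG on both sides.

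The surroundings of the 10 genes were compared by position. For each, the tested genes whose brightest probe set lies within 2 Mb were counted. Near PTPRG there were 3 such genes, with log2 changes between 0.13 and 0.23, and none passed. All were on the same side, centred 1.91 to 2.09 Mb away, so the closer surroundings of PTPRG were not measured. Near PTPRJ, 1 of 24 was higher and 4 were lower, with a median log2 change of 0.0055, and near PTPRM 1 of 11 was higher and none lower, with a median of 0.11. The log2 changes of PTPRG, PTPRJ and PTPRM lay above those of all these neighbours, whose highest values were 0.23, 0.51 and 0.49. These genes have the largest changes of a set chosen on the same arrays, so this is a description. Each of the other members lay below its highest neighbour, such as PTPRF (0.38 against 0.79) and PTPRS (0.32 against 1.78). PTPRZ1 had the neighbours with the lowest median. Of its 6 tested neighbours 3 were lower and none higher, with a median log2 change of -0.86, while PTPRZ1 stood at 0.18 with a signal too dim to be tested. Near the remaining members the medians lay between -0.15 (PTPRE, 5 genes) and 0.13 (PTPRS, 68 genes).

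**Figure D3:**
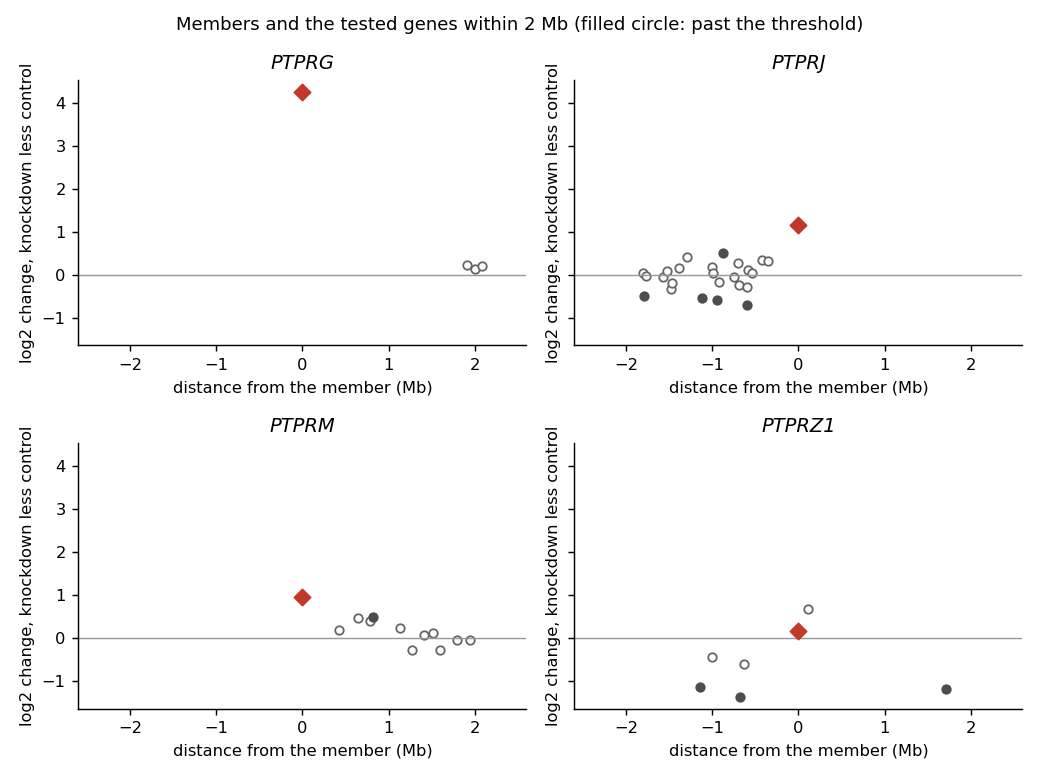
Log2 change, knockdown less control, against the distance in Mb from PTPRG, PTPRJ, PTPRM and PTPRZ1 (red diamonds) for the tested genes within 2 Mb of each (circles, filled where past the threshold). The neighbours of PTPRG, PTPRJ and PTPRM lie below these genes, those of PTPRG between 0.13 and 0.23, and 3 of 6 neighbours of PTPRZ1 are lower in knockdown cells.

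The genes whose profile over the 4 arrays was nearest to that of PTPRG, by Euclidean distance between log2(signal + 16) values less their own mean, were FLG (filaggrin) at 0.32, FST (follistatin) at 0.38 and KRT14 at 0.43. The mean signal of FLG was 759 in knockdown and 28.5 in control cells. The likeness is a description over 4 arrays that share their groups.

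Of the other receptor-type phosphatases, 9 genes were on the array and 5 were tested, of which 2 rose and 3 did not pass. The shares of all genes tested that passed were 8.79% higher and 10.6% lower. PTPRR, which is known to dephosphorylate MAP kinases, rose from 42.2 ± 8.20 to 175 ± 36.9 (SD, n = 2 each), a log2 change of 1.71 (SE 0.32, limma adjusted p = 0.0045). Its second probe set (206084_at) read 209 and 153 on the knockdown arrays and 17.9 and 4.92 on the control arrays. It had present calls in the knockdown group alone, and was 6.34-fold higher by the rule given for PTPRG (limma adjusted p = 0.00085). The knockdown arrays lay above the controls on both PTPRR probe sets. Both passed the filter on dim signals only through the knockdown arrays. PTPRB, the endothelial phosphatase, lies beside PTPRR on chromosome 12. It read 87.6 and 93.0 on the knockdown arrays and 46.1 and 32.2 on the control arrays, at a log2 change of 0.96 (SE 0.36) that did not pass (limma adjusted p = 0.11). Its groups did not overlap on this probe set, which was called present on the knockdown arrays alone. The other 3 PTPRB probe sets were too dim to be tested and overlapped between the groups. One of them (217177_s_at, log2 change -0.16) had the opposite calls, absent on both knockdown arrays and present on both controls. Of the 17 tested genes within 2 Mb of PTPRR none was higher and 2 were lower, with a median of -0.09. PTPRO passed narrowly on probe set 211600_at (7571 ± 862 against 5851 ± 104, SD, n = 2 each, limma adjusted p = 0.049). The other PTPRO probe sets read at most 23.6 on any array, so what this bright probe set measures is uncertain, and its call was lost in 8 of the alternative settings (limma adjusted p between 0.052 and 0.89). PTPRH, known from the gut, read 89.5 and 93.4 against 8.62 and 47.2 and was called present on no array (limma adjusted p = 0.071). The tested probe sets of PTPRB and PTPRH also passed the filter only through the knockdown arrays.

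Of the ligands and co-receptors of these phosphatases, 16 of 40 genes on the array were tested, and 3 rose, 3 fell and 10 did not pass. The glypican gene GPC4, a heparan sulphate proteoglycan of the cell surface, had present calls in the knockdown group alone. It rose 9.60-fold by the rule given for PTPRG, from 26.0 ± 24.0 to 373 ± 14.1 (SD, n = 2 each, limma adjusted p = 0.00026). GPC4 passed the filter on dim signals only through the knockdown arrays. Its surroundings on chromosome X moved the other way, with 11 of 13 tested neighbours lower and none higher (median log2 change -0.84). Versican (VCAN), a chondroitin sulphate proteoglycan of the matrix, rose from 269 ± 79.7 to 729 ± 25.1 (SD, n = 2 each, limma adjusted p = 0.00080). All 5 VCAN probe sets were higher in knockdown cells, with log2 changes between 1.12 and 1.60. Midkine (MDK), a growth factor that binds PTPRZ1, fell from 1931 ± 135 to 1375 ± 12.1 (SD, n = 2 each, limma adjusted p = 0.015). Thrombospondin 1 (THBS1), a ligand of PTPRJ, rose from 20142 ± 1371 to 27982 ± 1045 (SD, n = 2 each, limma adjusted p = 0.018). The calls of MDK and THBS1 were lost without control array 1 (limma adjusted p = 0.056 and 0.32) and without control array 2 (0.16 and 0.15). Their log2 changes there, -0.55 and -0.41 for MDK and 0.41 and 0.54 for THBS1, lay on either side of the -0.48 and 0.48 with all arrays. The call of THBS1 was also lost with the mean over its probe sets (limma adjusted p = 0.063). Over the 16 genes the median log2 change was -0.02, beside 0.02 over all genes tested.

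Of the substrates and intracellular partners, 34 of 40 genes were tested, and 3 rose, 4 fell and 27 did not pass. The adducin gene ADD1, of the cortical actin skeleton, fell 1.94-fold on the log2(signal + 16) scale, as for the folds that follow, from 4459 ± 286 to 2293 ± 32.5 (SD, n = 2 each, limma adjusted p = 0.00019). A second ADD1 probe set (214736_s_at) fell likewise, with a log2 change of -1.07, while another (214726_x_at) stood at -0.02 (limma adjusted p = 0.95). ADD1 lies on chromosome 4 among genes that were also lower, 22 of 38 tested neighbours being lower and 1 higher (median log2 change -0.73). The exchange factor gene TRIO, whose product binds the intracellular part of LAR, fell 1.57-fold, from 3471 ± 18.1 to 2203 ± 204 (SD, n = 2 each, limma adjusted p = 0.0024). Of its 6 tested neighbours on chromosome 5, 5 were lower and none higher (median -0.79). The part of the surroundings in the values of ADD1 and TRIO was not tested. The polarity gene PARD3 fell 1.41-fold and the actin regulator ENAH rose 1.37-fold (limma adjusted p = 0.0099 and 0.011). ENAH's probe set has a further alignment outside the gene, but a second ENAH probe set gave a log2 change of 0.49 (222433_at, limma adjusted p = 0.0080). PARD3 and ENAH missed the threshold without either control array (limma adjusted p between 0.075 and 0.12). With the mean over probe sets the calls of TRIO and ENAH were lost (limma adjusted p = 0.13 and 0.18), at log2 changes of -0.46 and 0.30. The median log2 change of the 34 was -0.05.

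Among genes of proteolytic processing, 20 of 22 were tested, and 1 rose, 2 fell and 17 did not pass. The furin-like proprotein convertase gene PCSK6 rose 2.82-fold, from 320 ± 85.9 to 917 ± 2.13 (SD, n = 2 each, limma adjusted p = 0.00036). Its other tested probe sets had log2 changes of 0.54 and 0.82 and did not pass (limma adjusted p = 0.091 and 0.075), and the mean over its probe sets did not pass either (log2 change 0.64, limma adjusted p = 0.12). The secretase gene BACE1 fell 1.80-fold, from 778 ± 19.4 to 425 ± 30.1 (SD, n = 2 each, limma adjusted p = 0.0024). All 4 BACE1 probe sets were lower in knockdown cells, with log2 changes between -1.34 and -0.66, and 3 of them passed, the exception being the dimmest (limma adjusted p = 0.17). PSENEN, a subunit of gamma-secretase, fell 1.34-fold (limma adjusted p = 0.028), a call lost without control array 1, control array 2 or knockdown array 1 (limma adjusted p = 0.23, 0.12 and 0.054). The median of the 20 was -0.12.

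Of the non-receptor phosphatases, 13 of 16 genes were tested, and 1 rose, 1 fell and 11 did not pass. PTPN2, which acts on Janus kinases, rose 1.40-fold (limma adjusted p = 0.017), on a probe set aligned to 3 places. The other tested PTPN2 probe sets did not pass, with log2 changes of 0.27 (213137_s_at, limma adjusted p = 0.17) and 0.19 (204935_at, aligned to a single place, limma adjusted p = 0.74). PTPN12, which acts on focal adhesion proteins, fell 1.33-fold (limma adjusted p = 0.034), with 8 of 18 tested neighbours on chromosome 7 lower and 1 higher. Both calls were lost without control array 1 (limma adjusted p = 0.17 and 0.16) and without control array 2 (0.051 and 0.23), and that of PTPN12 also without knockdown array 2 (0.052). With the mean over probe sets neither passed (limma adjusted p = 0.56 and 0.48). The median of the 13 was 0.07.

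**Figure D4:**
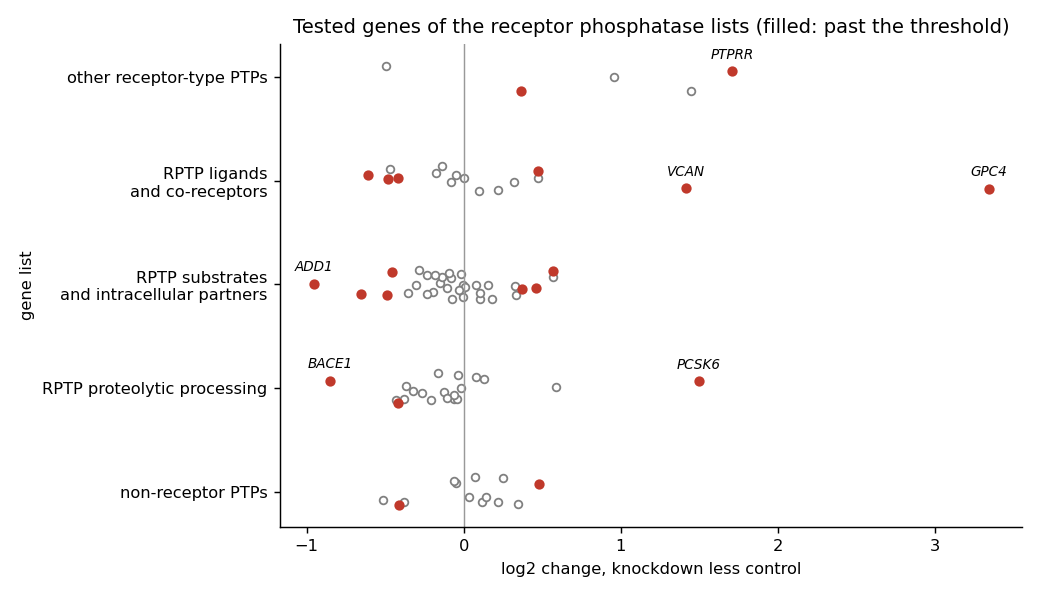
Log2 change, knockdown less control, of the tested genes of the 5 lists around the receptor phosphatases, one point per gene, filled where past the threshold and spread vertically for visibility. PTPRR, VCAN, GPC4, PCSK6 and PTPRH (not past the threshold) lie above 1, and most other genes lie within 0.6 of 0.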

How the data were processed

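The deposited intensity values are linear MAS5 signals, per the submitters' processing notes. Detection calls and detection p-values were used as deposited. The authors' log2 values, also in the value table, proved to be log2 signals with the row median subtracted (recomputed within 0.0001 for all 54675 probe sets) and served only for this check. The build of the alignments and the software version are not stated in those notes. Signals were analysed as log2(signal + 16), which understates folds of dim probe sets, with no further scaling. Probe sets at or above the median mean signal (27307 of 54613 that are not controls) were tested with limma 3.58.1 in R 4.3.3 (two-sided moderated test with a variance trend, group as the only term, 2 residual and 8.71 prior degrees of freedom) and Benjamini-Hochberg adjustment at 0.05. With 2 arrays a group, an exact two-sided permutation test cannot go below p = 0.333. The number of arrays limits the precision.

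Probe sets were named through the deposited Entrez number and the gene table of GRCh38.p14 (39614 named so, 1093 by the file's symbol). A gene outside the set of 10 was represented by its brightest probe set. Positions are those of the deposited alignments. Up to 4 genes per list with the largest statistic past the threshold are named, with PTPRB, PTPRH, the marker genes and further probe sets chosen after their values were seen. The set of 10 genes and the lists were chosen with earlier results of these data known. Tests were checked on simulated data. Alternatives were 14 other settings of pseudocount, filter, scaling, variance model, block, left-out array and probe set summary.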

Additional observations from a re-analysis of the deposited data

How the results depend on the processing

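No result changed direction while past the threshold in any setting tried. Over all probe sets the limma test called 4272. It called 2211 without the filter, 1491 without the variance trend and between 2163 and 4719 with single arrays left out, the low counts being those without a control array, where the remaining one is assumed to vary like the others. Probe sets of the 10 receptor phosphatases past the threshold, a description since the genes were chosen on these arrays, numbered 3, against 5 when probe sets present on at least 2 arrays were tested (PTPRK and PTPRM 1555579_s_at added, the latter present in the knockdown group alone) and between 2 and 4 with single arrays left out. Their median log2 change lay between 0.0905 and 0.335 with single arrays left out. Without the filter the calls were 3 of ligands, 4 of substrates, 0 of non-receptor phosphatases (4 at an unadjusted p under 0.05) and 1 of the other receptor-type genes. Without the variance trend they were 2, 1, 0 (5 at an unadjusted p under 0.05) and 1. With the mean over probe sets they were 3 for substrates, 0 for non-receptor phosphatases (1 at an unadjusted p under 0.05) and 1 for other receptor-type genes, where a pseudocount of 1, the upper quartile filter and centred array medians also gave 1. With single arrays left out the calls lay between 2 and 7 for ligands, 2 and 4 for processing, 2 and 8 for substrates, 0 and 3 for non-receptor phosphatases (at least 3 at an unadjusted p under 0.05) and 1 and 2 for other receptor-type genes. The replicate numbers are not said to mark a shared batch. Deviations of same-numbered arrays correlated at -0.02 across probe sets. With the replicate number as a block 4581 probe sets were called, 3 of them of the receptor phosphatases. The cause of these shifts was not tested. Signals near background limit PTPRZ1, PTPRM and the second probe sets of PTPRG and PTPRJ.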
